A study of Rattus norvegicus with 9 samples.

Results

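The phospholipase and prostaglandin pathway was followed in rat chondrocytes through 10 genes, chosen by name: the phospholipases Pla2g2a and Pla2g4a, the cyclooxygenases Ptgs1 and Ptgs2, the prostaglandin synthases Ptges, Ptgis and Ptgds, the receptors Ptger2 and Ptger4, and the breakdown enzyme Hpgd. Of these, 9 had a row under their symbol among 18924 genes, and all 9 passed the filter on low counts. Ptgis was not analysed here. RNA came from chondrocytes, which build and keep the matrix of cartilage, grown from SD (Sprague-Dawley) rats in medium with serum and used at passage 1 or 2, in 9 libraries. All cells were then given rat plasma for 24 h. The RPTi group (n = 3) received plasma, thrombin and an inhibitor of unstated identity, the RPT group (n = 3) received plasma and thrombin, and the RP group (n = 3) received plasma alone. Rat plasma was thus common to every group, and neither cells without plasma nor cells with the inhibitor but no thrombin were analysed here. Thrombin, the clotting protease, also signals through protease-activated receptors, and the series names a route through MEK, Erk1/2 and Stat3. Whether replicates stand for different rats or dishes is not stated, so each p-value reflects only how far these libraries differ, which may be technical variation.

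Prostaglandins are made in steps. Phospholipases A2 release arachidonic acid from membrane lipids, cyclooxygenases turn it into an unstable common precursor, and separate synthases turn that precursor into prostaglandin E2, D2, prostacyclin or thromboxane. The products leave the cell and act on receptors on the same or nearby cells, and a dehydrogenase begins their inactivation. In cartilage, prostaglandin E2 is best known as a product of inflamed tissue, and Ptgs2 and Ptges are the enzymes most often tied to its induction.

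Library totals were 31914905 to 37125039 counts for RPTi, 31877265 to 37009972 for RPT and 33520888 to 43962783 for RP. The chondrocyte markers Col2a1 and Acan were abundant in every library, at 15060 TMM-scaled CPM or more and at 4706 or more (CPM, each gene's share of a library's counts on a common scale, adjusted by the trimmed mean of M-values). The summed level of 10 chondrocyte markers was 67560 to 73000 CPM in RPTi, 24480 to 27640 CPM in RPT and 39800 to 42410 CPM in RP. Of 8 macrophage markers with a row, 4 stayed below 1 CPM in every library, among them Ptprc, the pan-leukocyte antigen, at 0.129 CPM at most. The summed macrophage list was 25.4 to 29.5 CPM in RPTi, 45.3 to 46.8 CPM in RPT and 24.4 to 28.5 CPM in RP, most of it Cd14. Of the 4 macrophage genes tested, 2 rose and 1 fell in RPT against RP, and 2 were lower and none higher in RPTi against RPT. Synovial fibroblast markers summed to 16350 to 17870 CPM in RPTi, 10140 to 10990 CPM in RPT and 16030 to 17340 CPM in RP, mostly Col1a1 and Col3a1. By gene that list was mixed: in RPT against RP 2 of its 8 genes rose and 3 fell, and in RPTi against RPT 2 were higher and 5 lower. Its gene Prg4, which encodes the joint lubricant lubricin, had 46.8 to 49.4 CPM in RPTi, 228 to 261 CPM in RPT and 15.6 to 18.2 CPM in RP. Smooth muscle markers, mostly Acta2, summed to 410 to 547 CPM in RPTi, 88.3 to 103 CPM in RPT and 122 to 136 CPM in RP. Of the 4 smooth muscle genes, 1 rose and 1 fell in RPT against RP, and 3 were higher and none lower in RPTi against RPT. Mast cell markers, nearly all Kit, summed to 18.7 to 21.2 CPM in RPTi, 4.06 to 5.20 CPM in RPT and 15.6 to 17.9 CPM in RP. All endothelial, red cell and platelet markers with a row stayed below 1 CPM, as did 4 of 5 adipocyte markers. The part of these marker shifts in the results below was not tested, and in bulk RNA fewer cells of a type and less RNA per cell cannot be told apart.

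The promoters of the 4 members with the largest rises in RPT over RP are shown, a choice made from these values. They were taken from RefSeq on build GRCr8 and run from 250 bases before to 50 bases after the gene start. The windows are chr5:156359475-156359774 on the plus strand for Pla2g2a, chr13:64713813-64714112 on the plus strand for Ptgs2, chr3:34586938-34587237 on the minus strand for Ptges and chr15:20696796-20697095 on the plus strand for Ptger2. Capitals mark matches, on either strand, to any of 8 motifs: the NF-kB pattern (GGG, any 5 bases, CC), the C/EBP pattern (TTGC, any 2 bases, AA), the STAT pattern (TTC, any 3 bases, GAA), AP-1 (TGANTCA), the CRE half-site (TGACG), the E-box (CACGTG), the GC box (GGGCGG) and the TATA box (TATAAA).
Pla2g2a: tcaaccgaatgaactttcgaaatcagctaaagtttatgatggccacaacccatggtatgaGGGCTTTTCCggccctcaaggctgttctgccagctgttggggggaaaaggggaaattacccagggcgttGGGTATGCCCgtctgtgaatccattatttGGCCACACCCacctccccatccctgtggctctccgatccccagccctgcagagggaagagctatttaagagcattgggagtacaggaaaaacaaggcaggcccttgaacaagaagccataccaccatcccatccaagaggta
Ptgs2: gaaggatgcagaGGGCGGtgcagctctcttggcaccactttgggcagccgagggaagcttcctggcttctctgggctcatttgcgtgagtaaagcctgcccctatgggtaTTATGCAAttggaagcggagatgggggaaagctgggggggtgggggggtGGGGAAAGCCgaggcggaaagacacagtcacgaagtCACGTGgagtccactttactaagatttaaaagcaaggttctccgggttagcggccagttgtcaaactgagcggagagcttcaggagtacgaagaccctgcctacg
Ptges: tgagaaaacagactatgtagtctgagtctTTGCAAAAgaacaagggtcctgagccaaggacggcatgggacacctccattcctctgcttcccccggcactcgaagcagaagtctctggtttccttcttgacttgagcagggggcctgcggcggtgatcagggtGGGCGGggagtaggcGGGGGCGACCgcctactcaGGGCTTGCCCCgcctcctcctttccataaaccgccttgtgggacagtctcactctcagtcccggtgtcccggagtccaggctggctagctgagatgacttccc
Ptger2: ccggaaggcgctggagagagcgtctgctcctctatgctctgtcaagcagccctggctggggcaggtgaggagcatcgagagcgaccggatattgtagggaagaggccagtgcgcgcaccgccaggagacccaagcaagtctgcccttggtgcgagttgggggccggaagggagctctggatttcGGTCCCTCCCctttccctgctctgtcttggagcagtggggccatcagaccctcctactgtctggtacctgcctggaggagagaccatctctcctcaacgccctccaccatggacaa
All 9 members with a count row had a promoter entry. The NF-kB pattern was found in 5 of the 9 windows, those of Pla2g2a, Ptgs2, Ptges, Ptger2 and Ptgs1, and in 47.3% of 33469 promoters of the same length. Pla2g2a and Ptges held 3 matches each, of which a pair in Ptges overlapped. The C/EBP pattern was found in 2 of the 9 windows, those of Ptgs2 and Ptges, and in 10.6% of all promoters. GC boxes occurred in Ptgs2, Ptges, Ptgds and Hpgd (33.1% of all promoters), E-boxes in Ptgs2 and Hpgd (6.42%), a TATA box in Pla2g4a (14.2%) and a CRE half-site in Hpgd (21.2%). No AP-1 or STAT match was present in the 9 windows, against 7.33% and 8.87% of all promoters. These matches describe the letters of the windows only.

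Thrombin in plasma was compared with plasma alone. In RPT, 5 of 9 members rose and 2 fell, where 13.6% and 15.2% of 13856 tested genes rose and fell (28.9% in all). The members were chosen with earlier results of these data known, so setting such shares side by side is no test of the pathway. The rises covered the secreted phospholipase, both cyclooxygenases, the prostaglandin E synthase and a prostaglandin E receptor. That of the cyclooxygenase Ptgs1 was small (1.16-fold), and its call was lost in 4 of 18 alternative settings. The falls were those of the prostaglandin D synthase and of the dehydrogenase. The members' median log2 fold change was 0.23, against -0.001 over all genes tested. Genes are said to rise, fall, or be higher or lower by the test when the Benjamini-Hochberg adjusted p of edgeR's quasi-likelihood test was below 0.05.

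With the inhibitor added to thrombin, 6 of 9 members were lower in RPTi than in RPT and 2 were higher, where 21.1% of all tested genes were lower and 20.4% higher (41.5% in all). The members' median log2 fold change was -1.19, against -0.008 over all genes. Scaling by library totals alone left 38.4% of all called genes on the higher side, against 49.2% with TMM, and the same 8 members passed. RPTi was also compared with RP, where 3 members were lower, 2 were higher and 4 did not pass, beside 12.3% of all genes lower and 11.9% higher (24.2% in all). In that comparison the higher share of all called genes was 36.6% with library totals alone and 49.1% with TMM. The 3 comparisons share libraries in pairs, so their values are set side by side and not counted as separate support.

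**Figure D1:**
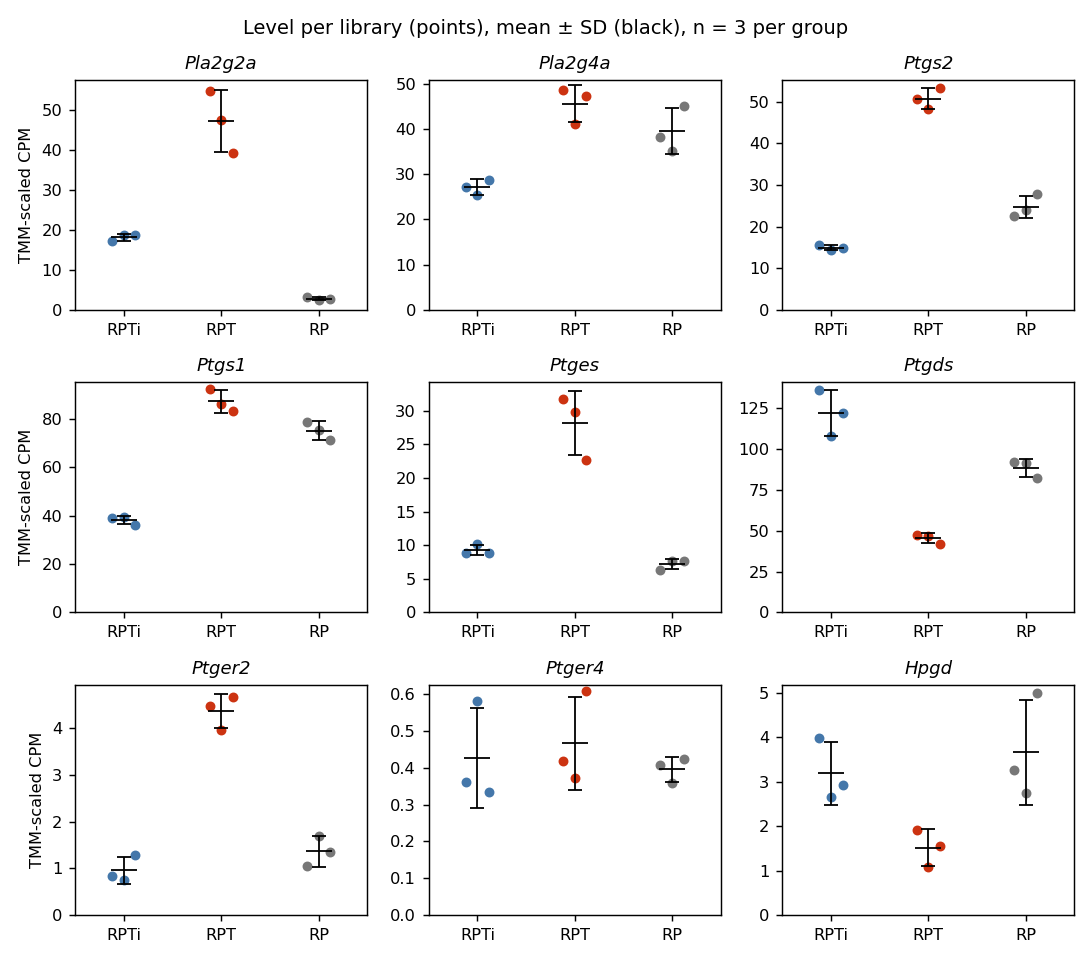
TMM-scaled CPM (y axis, from 0) of the 9 members in each RPTi, RPT and RP library (x axis); points are libraries and black bars the mean ± SD of 3. Pla2g2a in RPT lies at 39.2 to 54.7 CPM, against 2.38 to 3.17 CPM in RP, with RPTi between them at 17.1 to 18.7 CPM.

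**Figure D2:**
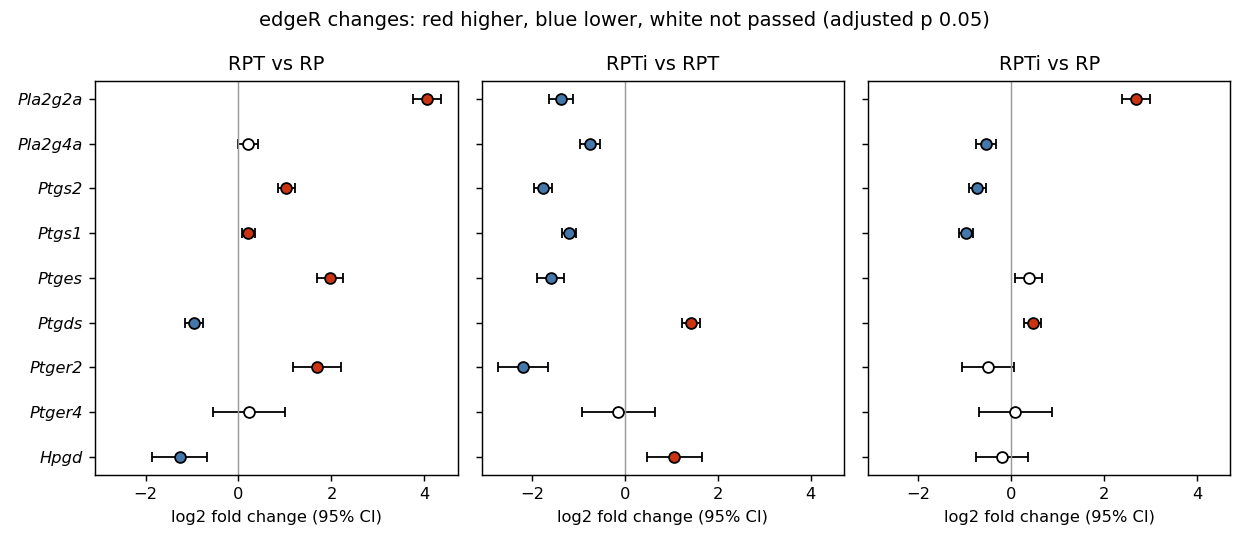
Log2 fold changes (x axis) of the 9 members in the 3 comparisons with 95% confidence intervals from edgeR; red points were higher, blue lower and white did not pass. Pla2g2a is the member that stays far above 0 in RPTi vs RP (2.69), while Ptger4 crosses 0 in each panel.

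Pla2g2a (ENSRNOG00000016945) encodes the secreted group IIA phospholipase A2, an enzyme of inflammatory fluids. It had 17.1, 18.7 and 18.6 CPM in the RPTi libraries, 54.7, 47.3 and 39.2 CPM in the RPT libraries, and 3.17, 2.38 and 2.85 CPM in the RP libraries. The 3 groups did not overlap, and RPTi lay between RPT and RP. It rose 16.7-fold in RPT over RP (95% interval 13.5 to 20.6, edgeR adjusted p = 1.83e-09). In RPTi it was 2.60-fold lower than in RPT (adjusted p = 1.16e-06) and 6.43-fold higher than in RP (interval 5.22 to 7.93, adjusted p = 6.2e-08). Its log2 fold change for RPT against RP ranged from 3.73 to 4.18 over 18 alternative settings, each past the threshold.

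Pla2g4a (ENSRNOG00000002657), the cytosolic phospholipase A2 that prefers arachidonic acid, moved otherwise. It had 27.2, 25.3 and 28.8 CPM in RPTi, 48.6, 41.0 and 47.3 CPM in RPT, and 38.3, 35.1 and 45.1 CPM in RP. RPT and RP overlapped, and RPTi lay below both. The log2 fold change of RPT against RP was 0.21 (interval -0.01 to 0.42, adjusted p = 0.139), so a fold of up to 1.34 lay within the interval. The call changed with 1 library: without RP replicate 3 it was 0.31 (adjusted p = 0.0301). In RPTi the gene was 1.68-fold lower than in RPT (adjusted p = 6.3e-05) and 1.46-fold lower than in RP (adjusted p = 0.00181).

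The neighbouring genes of both phospholipases gave a further view. Among the protein-coding genes of the GRCr8 annotation, Pla2g2a lies on chromosome 5 between Pla2g5 and Pla2g2e, secreted relatives of the same enzyme. Pla2g5 averaged 8.72 ± 0.664 CPM in RPTi, 8.94 ± 1.24 CPM in RPT and 11.2 ± 0.452 CPM in RP (SD, n = 3). Pla2g2e averaged 0.978 ± 0.316 CPM in RPTi, 1.06 ± 0.365 CPM in RPT and 1.08 ± 0.121 CPM in RP (SD, n = 3). Neither passed in RPT against RP (Pla2g5 log2 fold change -0.32, adjusted p = 0.0504, and Pla2g2e -0.03, adjusted p = 0.962). Pla2g5 lay at the threshold and passed without RPT replicate 2 (-0.41, adjusted p = 0.0252), with a replicate block (0.0486) and with a floor of 1 CPM in 3 libraries (0.0481). On chromosome 13 Pla2g4a and Ptgs2 lie next to each other among the protein-coding genes of that annotation.

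Ptgs2 (ENSRNOG00000002525), the inducible cyclooxygenase, had 15.7, 14.5 and 14.8 CPM in RPTi, 50.7, 48.1 and 53.3 CPM in RPT, and 22.7, 24.1 and 27.8 CPM in RP. The groups did not overlap, and RPTi was the lowest. Ptgs2 rose 2.04-fold in RPT over RP (log2 fold change 1.03, SE 0.08, adjusted p = 2.13e-06). In RPTi it was 1.66-fold lower than in RP (log2 fold change -0.73, SE 0.09, adjusted p = 6.72e-05), so its level with thrombin and inhibitor was below that of plasma alone. Against RPT the log2 fold change of RPTi was -1.76 (SE 0.09).

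Ptgs1 (ENSRNOG00000007415), the cyclooxygenase that many tissues make at rest, had 38.9, 39.3 and 36.3 CPM in RPTi, 92.4, 86.0 and 83.3 CPM in RPT, and 78.9, 75.6 and 71.1 CPM in RP. The RPTi libraries lay far below the others, and the RPT and RP libraries were separate but close. The rise in RPT over RP was small, 1.16-fold (adjusted p = 0.0313), and the call was lost when RPT replicate 1 (adjusted p = 0.129), RP replicate 2 (0.0695) or RP replicate 3 (0.11) was left out, or with only the RPT and RP libraries in the fit (0.0509). In RPTi the gene was 2.29-fold lower than in RPT (adjusted p = 3.42e-08) and 1.97-fold lower than in RP (adjusted p = 8.08e-07).

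The ratio of Ptgs2 to Ptgs1 was taken per library on FPKM (CPM per kilobase of gene length), the scale on which genes can be compared with each other. It was 0.258, 0.236 and 0.261 in RPTi, 0.352, 0.359 and 0.410 in RPT, and 0.184, 0.204 and 0.250 in RP. The RPT ratios lay above those of both other groups, and Ptgs1 had the higher FPKM in all 9 libraries. The mean log2 ratio was 0.82 higher in RPT than in RP (exact two-sided permutation p = 0.1, n = 3 each), 0.57 lower in RPTi than in RPT (log2 difference -0.57, exact p = 0.1) and 0.25 higher in RPTi than in RP (exact p = 0.2). With 3 libraries against 3, the smallest p this test can give is 0.1, so none could pass 0.05.

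Ptges (ENSRNOG00000006320) encodes the inducible microsomal prostaglandin E synthase. It had 8.88, 10.2 and 8.88 CPM in RPTi, 31.8, 29.9 and 22.7 CPM in RPT, and 6.26, 7.65 and 7.69 CPM in RP. The RPT libraries were the high ones, and the RPTi libraries lay just above those of RP. The log2 fold change of RPT over RP was 1.97 (SE 0.13, adjusted p = 4.5e-07), and RPTi was 3.02-fold lower than RPT (adjusted p = 7.76e-07). Between RPTi and RP the log2 fold change was 0.37 (interval 0.08 to 0.67, adjusted p = 0.0646). That difference did not pass in edgeR but passed in DESeq2 (adjusted p = 0.0364), with only those 2 groups fitted (0.0338), and without RPT replicate 3 (0.0189).

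Ptgds (ENSRNOG00000015550), the lipocalin-type prostaglandin D synthase, went the other way. It had 136, 108 and 122 CPM in RPTi, 47.4, 47.0 and 42.1 CPM in RPT, and 92.1, 91.5 and 82.3 CPM in RP. No library of one group overlapped another group. The gene fell 1.95-fold in RPT against RP (log2 fold change -0.96, SE 0.09, adjusted p = 5.58e-06). In RPTi it was 2.68-fold higher than in RPT (adjusted p = 6.66e-08) and 1.38-fold higher than in RP (adjusted p = 0.00199).

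The ratio of Ptges to Ptgds on FPKM therefore differed most in RPT. It was 0.0408 to 0.0592 in RPTi, 0.339 to 0.421 in RPT and 0.0426 to 0.0586 in RP. The RPTi and RP ranges overlapped, and the RPT range lay above both. Ptgds kept the higher FPKM of the pair in every library.

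**Figure D3:**
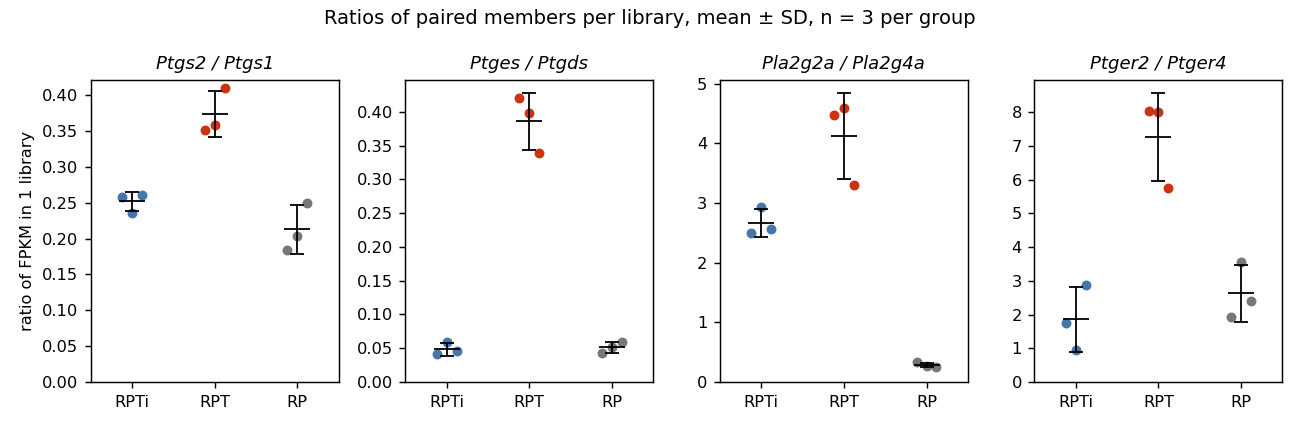
Ratio of FPKM of paired members within each library (y axis, from 0) by group (x axis); points are libraries and bars the mean ± SD of 3. The Ptges to Ptgds ratio averages 0.386 in RPT, against 0.0512 in RP, and the Pla2g2a to Pla2g4a ratio averages 2.67 in RPTi, 4.12 in RPT and 0.284 in RP.

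Ptger2 (ENSRNOG00000050968) encodes the EP2 receptor for prostaglandin E2, which raises cAMP. It was low, with 30, 23 and 46 counts in the RPTi libraries, 171, 128 and 153 counts in the RPT libraries and 46, 57 and 51 counts in the RP libraries. On the CPM scale this gave 0.743 to 1.28 in RPTi, 3.96 to 4.67 in RPT and 1.04 to 1.70 in RP, so only RPT stood apart. Ptger2 rose 3.22-fold in RPT over RP (interval 2.25 to 4.62, adjusted p = 0.000196) and was 4.55-fold lower in RPTi than in RPT (adjusted p = 1.57e-05). RPTi against RP did not pass (log2 fold change -0.50, interval -1.06 to 0.06, adjusted p = 0.185).

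Ptger4 (ENSRNOG00000013240), the EP4 receptor gene and likewise coupled to cAMP, had 13, 18 and 12 counts in RPTi, 16, 12 and 20 in RPT, and 18, 12 and 16 in RP. All groups overlapped. Its log2 fold changes were 0.23 in RPT against RP (interval -0.55 to 1.01, adjusted p = 0.682), -0.14 in RPTi against RPT (interval -0.92 to 0.65, adjusted p = 0.788) and 0.09 in RPTi against RP (interval -0.70 to 0.88, adjusted p = 0.885). At these low counts, folds of RPT over RP from 0.68 to 2.01 lay within the interval, so changes of that size were not excluded. It was the member that did not pass the edgeR F test over the 3 groups either (adjusted p = 0.849), which 46.7% of all genes passed.

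Hpgd (ENSRNOG00000010610), the dehydrogenase that starts the inactivation of prostaglandins, had 143, 82 and 105 counts in RPTi, 73, 35 and 51 in RPT, and 144, 92 and 189 in RP. In CPM it ranged from 2.65 to 3.98 in RPTi, 1.08 to 1.91 in RPT and 2.74 to 4.99 in RP. The RPT libraries lay below all others, while RPTi and RP overlapped. Hpgd fell 2.40-fold in RPT against RP (log2 fold change -1.27, SE 0.27, adjusted p = 0.0041) and was 2.09-fold higher in RPTi than in RPT (adjusted p = 0.00762). Between RPTi and RP the log2 fold change was -0.20 (interval -0.76 to 0.36, adjusted p = 0.623).

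By mean FPKM Ptgds led the members in each group. Its mean was 151 FPKM in RPTi, 59.1 FPKM in RPT and 114 FPKM in RP. In plasma alone it was followed by Ptgs1 at 27.0 FPKM and Pla2g4a at 11.8 FPKM, with Ptges (5.79 FPKM) and Ptgs2 (5.73 FPKM) overlapping, and with Pla2g2a at 3.33 FPKM next. In RPT, Pla2g2a reached 56.6 FPKM, and its range overlapped that of Ptgds, while Ptges (22.9 FPKM) stood above Pla2g4a (13.8 FPKM) and Ptgs2 (11.8 FPKM), which overlapped. In RPTi, Pla2g2a ranked next to Ptgds at 20.8 FPKM, above Ptgs1 at 13.2 FPKM. Ptger2, Ptger4 and Hpgd stayed at or below 3.02 FPKM in every library.

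**Figure D4:**
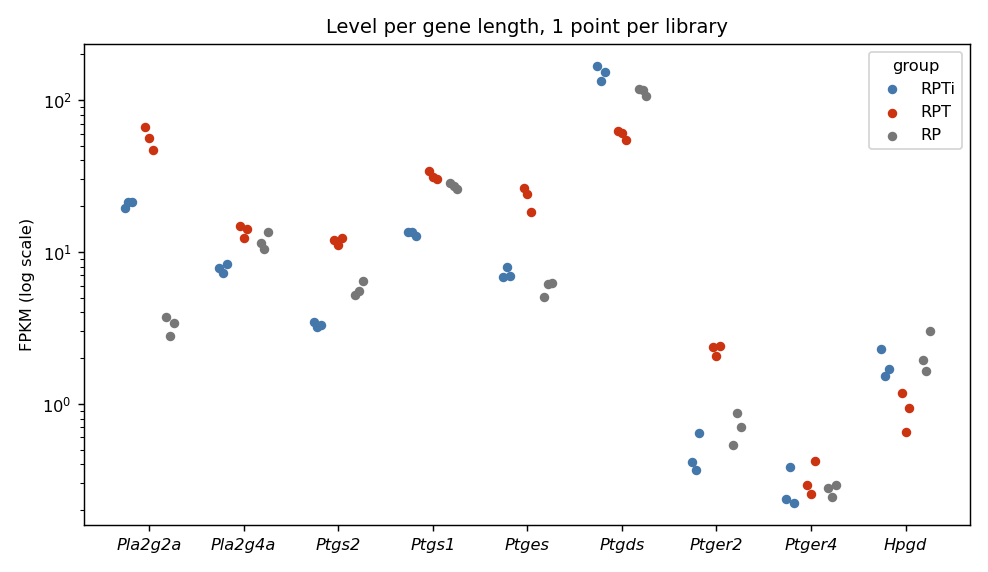
FPKM (log y axis) of the 9 members (x axis), 1 point per library, coloured by group. Ptgds is the highest member in RPTi and RP, and in RPT its range of 54.3 to 62.4 FPKM overlaps that of Pla2g2a, 46.9 to 66.6 FPKM.

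Genes outside the members whose level was most like a member's were named by Pearson's correlation of log2 CPM over 9 libraries, among 9339 genes with a symbol and a mean of at least 5 CPM. The 9 libraries form 3 groups, so these values describe shared group levels. For Pla2g2a they were Scube3, a secreted EGF-domain protein gene (r = 0.996), the acute-phase gene Lcn2 (0.995) and Stc2, which encodes the secreted glycoprotein stanniocalcin (0.984). Lcn2 averaged 69.2 CPM in RPTi, 194 CPM in RPT and 12.3 CPM in RP. The genes most like Ptgs2 were Arsb (0.993), a lysosomal sulfatase, Elk3 (0.993), an ETS transcription factor, and Mfap3l (0.991). Those most like Ptges were Tgfbrap1 (0.987), Sbno2 (0.986) and Mical2 (0.986), and those most like Hpgd were Pls3, Dsel and Megf9 (0.979, 0.979 and 0.969). Elk3 averaged 51.9 CPM in RPTi, 107 CPM in RPT and 72.4 CPM in RP, with RPTi lowest as in Ptgs2.

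Of 20 other phospholipases A2 listed, 19 had a row and 11 were tested. In RPT against RP, 2 rose, none fell and 9 did not pass, beside 13.6% of all genes higher and 15.2% lower, and the list's median log2 fold change was 0.08. Those that rose were Pla2g7, the secreted platelet-activating factor hydrolase (log2 fold change 0.36, SE 0.10, adjusted p = 0.0184), and the cytosolic Pla2g4b (0.43, SE 0.12, adjusted p = 0.0205). The call of Pla2g7 was lost when RPT replicate 2 (adjusted p = 0.0646), RP replicate 1 (0.0596) or RP replicate 3 (0.0546) was left out. That of Pla2g4b was lost when RP replicate 1 (0.0752), RP replicate 2 (0.0535) or RPT replicate 2 (0.0607) was left out. In RPTi against RPT, 2 of the 11 were lower, Pla2g7 (-0.50) and Pla2g4b (-0.45), 1 was higher and 8 did not pass, beside 21.1% of all genes lower and 20.4% higher. The shares of all genes called are the background for the counts of each list that follows. Like the members, the lists were chosen with earlier results of these data known.

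Of 7 other prostanoid synthases 4 were tested. Ptges2 and Ptges3, further prostaglandin E synthases, rose 1.35-fold and 1.34-fold in RPT against RP (adjusted p = 0.00432 and 0.00607), while Fam213b and Akr1b1, linked to prostaglandin F synthesis, did not pass there. In RPTi against RPT, Ptges3 was 1.51-fold lower (adjusted p = 0.000327), Fam213b was 1.53-fold higher (adjusted p = 0.0177), and Ptges2 did not pass (adjusted p = 0.827). The call of Fam213b was lost when RPTi replicate 2 (0.0889) or RPT replicate 1 (0.0651) was left out. Hpgds, the other prostaglandin D synthase, had 2 counts over all 9 libraries, and the thromboxane synthase gene Tbxas1 had 9.

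The other prostanoid receptors were low, and 5 of 7 were tested. In RPT against RP, 2 fell, none rose and 3 did not pass (median log2 fold change -0.54). Ptgfr, the prostaglandin F receptor, had 6.27 to 8.15 CPM in RPTi, 1.34 to 2.01 CPM in RPT and 3.08 to 4.91 CPM in RP. The 3 groups did not overlap in Ptgfr, which fell 2.45-fold in RPT against RP (adjusted p = 0.000646) and was 4.19-fold higher in RPTi than in RPT (adjusted p = 6.33e-06). Ptger3, the EP3 receptor that lowers cAMP, averaged 0.973 ± 0.165 CPM in RPTi, 0.0982 ± 0.0795 CPM in RPT and 0.339 ± 0.146 CPM in RP (SD, n = 3). Its fall in RPT had a log2 fold change of -1.78 (adjusted p = 0.0319). The call was lost when RP replicate 1 (0.138), RP replicate 2 (0.0673), RPT replicate 1 (0.101) or RPT replicate 3 (0.0976) was left out. On log2(FPKM + 1) it was lost as well (0.0969). The difference between RPTi and RPT (3.27, SE 0.52, adjusted p = 0.000245) passed in the 17 alternative runs that tested Ptger3. Its size there ranged from 0.48 to 4.03. Without RPT replicate 2 that difference was 4.03 on the log2 scale for Ptger3, the highest value on leaving out 1 library. Tbxa2r, the thromboxane receptor, was 2.64-fold higher in RPTi than in RP (adjusted p = 0.00627). In RPTi against RPT, 4 of the 5 were higher and none lower.

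Among transport and breakdown genes, 5 of 6 were tested. In RPT against RP, 1 rose, 1 fell and 3 did not pass, and in RPTi against RPT, 1 was higher, 2 were lower and 2 did not pass. Slco2a1, the carrier that takes prostaglandins into cells, had 8.54 to 9.88 CPM in RPTi, 17.6 to 18.6 CPM in RPT and 13.1 to 15.2 CPM in RP. It rose 1.27-fold in RPT against RP (adjusted p = 0.0103) and was 1.99-fold lower in RPTi than in RPT (adjusted p = 2.19e-06). Ptgr1, a reductase of prostaglandin breakdown, had 25.4 to 35.3 CPM in RPTi, 80.0 to 91.4 CPM in RPT and 73.9 to 83.3 CPM in RP. It did not pass in RPT against RP (log2 fold change 0.13, adjusted p = 0.432), and was 3.03-fold lower in RPTi than in RPT (adjusted p = 2.55e-07). Abcc4, an exporter of prostaglandins, fell 1.21-fold in RPT against RP (adjusted p = 0.00917) and was 1.21-fold higher in RPTi than in RPT (adjusted p = 0.00466).

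**Figure D5:**
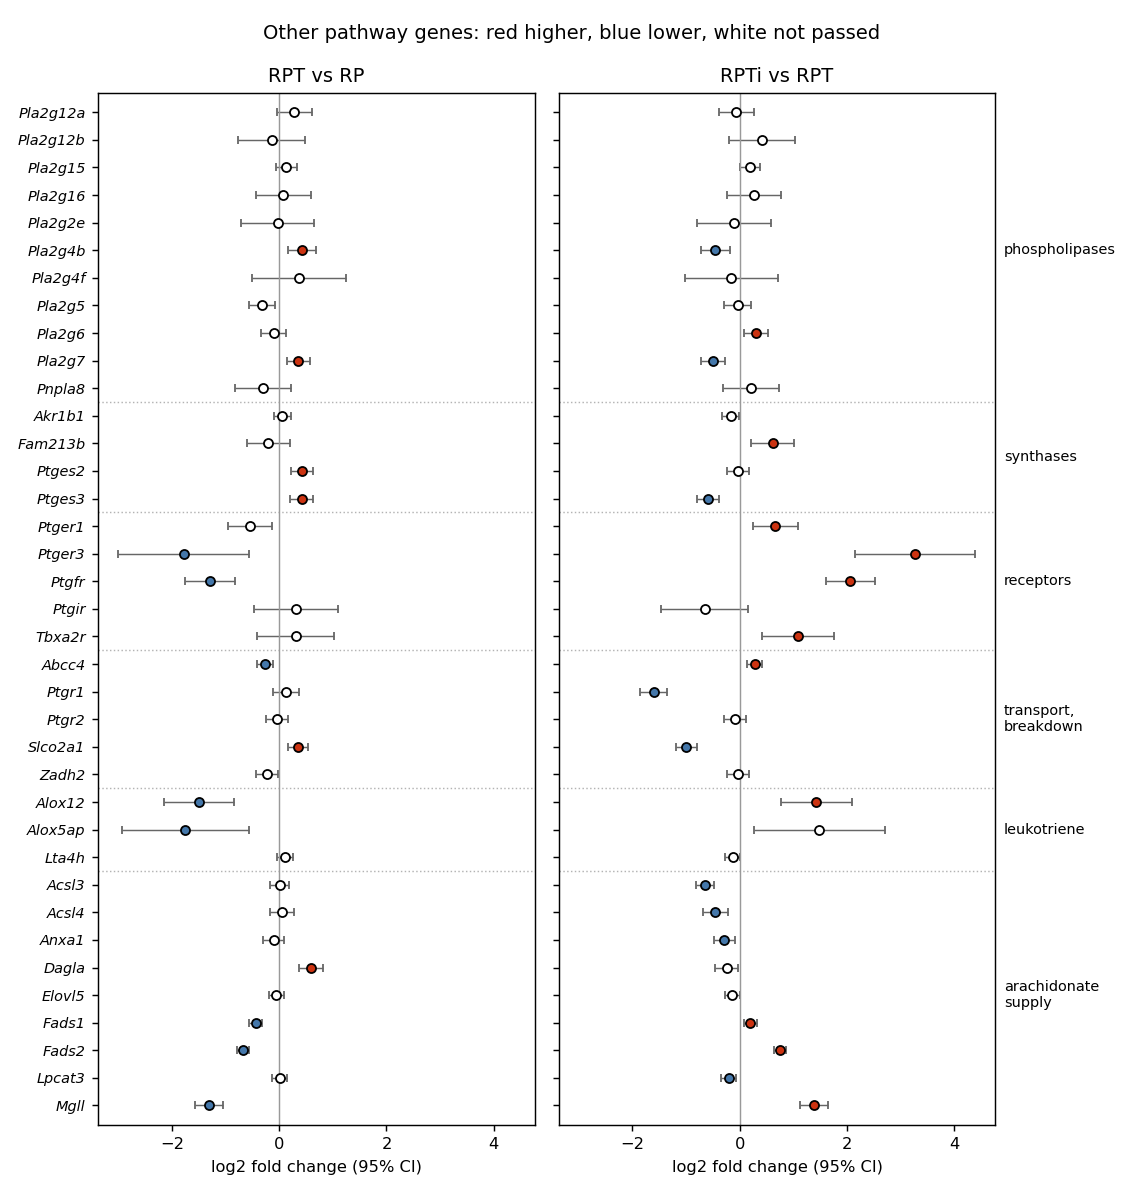
Log2 fold changes (x axis) with 95% confidence intervals for tested genes of 6 further lists of the pathway, in RPT vs RP and RPTi vs RPT; red points were higher, blue lower and white did not pass, and dotted lines part the lists. Ptgfr lies at -1.29 in RPT vs RP and at 2.06 in RPTi vs RPT, and Ptgr1 at 0.13 in RPT vs RP and -1.60 in RPTi vs RPT.

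A list headed arachidonic acid supply, which also held the annexin gene Anxa1, had 9 of 11 genes tested. In RPT against RP, 3 fell and 1 rose. The desaturase gene Fads2, a step in making arachidonic acid, fell 1.59-fold (adjusted p = 1.51e-06), and Mgll, the lipase of monoacylglycerols, fell 2.48-fold (adjusted p = 4.31e-06). In RPTi against RPT, 4 were lower and 3 higher. Among the lower was Anxa1 (log2 fold change -0.29, adjusted p = 0.0243), whose call was lost in 5 of 18 alternative settings. Fads2 was 1.68-fold higher and Mgll 2.61-fold higher, while Acsl3, which activates fatty acids for use in lipids, was 1.57-fold lower (adjusted p = 3.68e-05).

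Of 10 genes of the leukotriene and lipoxygenase branch, 9 had a row and 3 were tested, the other 6 lying below the count filter. Lta4h, the hydrolase that makes leukotriene B4, averaged 63.6 ± 3.54 CPM in RPTi, 69.6 ± 3.46 CPM in RPT and 64.5 ± 2.09 CPM in RP (SD, n = 3), and passed in none of the 3 comparisons (adjusted p = 0.241 in RPT against RP, 0.141 in RPTi against RPT and 0.873 in RPTi against RP). Alox12, a lipoxygenase gene, was low, with means of 1.17 CPM in RPTi, 0.433 CPM in RPT and 1.23 CPM in RP. It fell 2.82-fold in RPT against RP (adjusted p = 0.00257) and was 2.69-fold higher in RPTi than in RPT (adjusted p = 0.0022). Alox5, which starts leukotriene synthesis, had 10 counts over all 9 libraries. Alox5ap averaged 0.116 CPM in RPT and 0.393 CPM in RP. Its fall in RPT (log2 fold change -1.75, adjusted p = 0.0293) was lost when RP replicate 1 (0.122), RP replicate 3 (0.0794), RPT replicate 1 (0.0686) or RPT replicate 3 (0.09) was left out.

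Of 11 transcription factor genes known to act on Ptgs2 or Ptges, 5 rose in RPT against RP and none fell (median log2 fold change 0.24), beside 13.6% of all genes higher and 15.2% lower. Jun rose 1.69-fold (adjusted p = 1.4e-06) and Cebpd 1.50-fold (adjusted p = 0.00107). In RPTi against RPT, 7 of 11 were lower and none higher (median -0.30), beside 21.1% of all genes lower and 20.4% higher. Among the lower was Cebpd, whose call was lost in 4 of 18 alternative settings and whose RPTi and RPT libraries overlapped. Egr1, an immediate early factor, averaged 15.9 ± 4.05 CPM in RPTi, 108 ± 23.5 CPM in RPT and 65.7 ± 3.79 CPM in RP (SD, n = 3). It was 6.75-fold lower in RPTi than in RPT (adjusted p = 6.95e-08) and 4.11-fold lower than in RP (adjusted p = 3.51e-06).

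Genes known to respond to cAMP, the messenger of Ptger2 and Ptger4, went both ways. Of 13 tested, 4 rose and 2 fell in RPT against RP (median log2 fold change 0.10), 5 were higher and 3 lower in RPTi against RPT (0.06), and 4 were higher and 2 lower in RPTi against RP (-0.03). Areg, a ligand of the EGF receptor, rose 2.78-fold in RPT (adjusted p = 5.41e-05) and was 5.68-fold lower in RPTi than in RPT (adjusted p = 4.16e-07). Sik1, a kinase, rose 1.60-fold in RPT and was 2.14-fold lower in RPTi than in RPT. Among the 5 higher in RPTi than in RPT were Ppargc1a (2.88-fold), Nr4a3 (2.24-fold) and Dusp1 (1.21-fold). In RPT against RP, Ppargc1a, a low gene, fell 3.37-fold, Nr4a3 did not pass (adjusted p = 0.409) and Dusp1 rose 1.34-fold.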

How the data were processed

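Poly-A selected RNA was sequenced as paired 150-base reads. The deposited table held whole-number counts per Ensembl rat gene and FPKM per library, both made by the authors. The submitters' processing notes name build Rnor_6.0, HISAT2, HTSeq 0.11.2 and DESeq2 1.26.0, without roles. The kit named in the labels does not mark strand, and no source used here gives the annotation release, so overlapping and antisense genes are uncertain. Dividing counts by library total and 1 length per gene gave the deposited FPKM for 18924 of 18924 genes within a relative tolerance of 1e-06. FPKM served to compare genes with each other, and ratios had no pseudocount.

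Groups came from sample titles. Counts were filtered by filterByExpr (minimum count 10, minimum total 15), leaving 13856 genes, and TMM-scaled. One edgeR 4.0.16 quasi-likelihood model (R 4.3.3) covered all 9 libraries, with a term for each group, and p-values were adjusted over all genes. Before TMM scaling, 1 count was worth 0.0227 to 0.0314 CPM. The code was tested on simulated data. Permutation tests used scipy 1.17.1. Promoter sequences came from RefSeq tables on GRCr8, a build other than the files', so windows and neighbours are given on GRCr8 only.

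The members and lists were chosen with earlier results of these data known. Text names all members and, from each list, genes among the 2 called with the smallest p in at least 1 comparison. Such genes may also be given for other comparisons, as Acsl3 and Abcc4 are for RPTi against RPT. Single genes were also chosen after their values were seen: Pla2g5 and Pla2g2e as neighbours, Hpgds, Tbxas1, Alox5, Lta4h, Akr1b1, Nr4a3, Ppargc1a and the marker Prg4. Of 138 listed symbols, 125 matched a row.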

Additional observations from a re-analysis of the deposited data

How the results depend on the processing

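Members were refitted with DESeq2 size factors, library totals alone, no filter, a floor of 1 CPM in 3 libraries, a replicate block, the 2 compared groups only, DESeq2 1.42.0, limma 3.58.1 on log2(FPKM + 1) and log2(FPKM + 0.1), and without each library. Of 483 member values under these settings, 473 stayed on the same side of the threshold, 4 lost and 6 gained the call, and none of the called values changed sign. Members called numbered 6 to 8 in RPT against RP, 8 in RPTi against RPT and 5 to 6 in RPTi against RP. Over all genes, leaving out 1 library gave 2889 to 3957 calls in RPT against RP, 4733 to 5893 in RPTi against RPT and 2274 to 3992 in RPTi against RP. The Ptgs2 to Ptgs1 log2 difference, taken from FPKM alone, had 8 alternatives in each comparison, with a pseudocount added or 1 library left out. It ranged from 0.71 to 0.94, from -0.61 to -0.37 and from 0.16 to 0.38 in these 3 comparisons. With a replicate block, Pla2g4a passed in RPT against RP (0.21, adjusted p = 0.0223) and Ptges in RPTi against RP (0.37, adjusted p = 0.0465). Over all genes the replicate block gave 5074, 6698 and 4689 calls in the 3 comparisons, against 3999, 5745 and 3352. Libraries with the same number did not deviate together (correlations -0.11 to 0.12, over 0.1 in 2 of 9 pairs), 3 of 9 libraries correlated best with their own number, and the numbers are not treated as pairs. Folds on log2(FPKM + 1) understate changes of low genes such as Ptger2 (0.95 in RPT against RP, -1.16 in RPTi against RPT), and depth limits Ptger4.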
